A study of Mus musculus with 15 samples.

Results

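The S100 genes encode a family of small calcium-binding proteins, and 10 of them, S100a1, S100a4, S100a6, S100a8, S100a9, S100a10, S100a11, S100a14, S100a16 and S100b, were followed through mammary tumors and normal mammary glands of the mouse. They were taken by gene symbol from the 51826 genes of the expression tables, by a rule that has no cutoff on their values. The members were nevertheless chosen with earlier results of these data known. Their counts beside those of all genes are therefore a description and not a test of the family. S100 proteins have no enzyme activity. Most of them, though not all, form dimers, bind calcium through EF-hand motifs and, when calcium rises, expose a surface that docks partners such as annexins, myosin heavy chains and, outside the cell, the receptors RAGE (Ager) and Tlr4. In the mammary gland S100 genes are known as markers of different cells: S100a8 and S100a9 of neutrophils, monocytes and stressed epithelium, S100a4 of mesenchymal cells, S100a14 of epithelium and S100b of glia and fat cells.

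RNA-seq of 13 mice gave 15 libraries in 4 groups. The labels give the strain as FVB for all, while the study describes the mice of its non-TRIM24 tumors as either FVB or FVB/129. The Trim24COE mice carry a FLAG-tagged murine Trim24 transgene behind a loxP-flanked stop cassette, inserted at a single site, and an MMTV-Cre transgene, whose promoter is active mainly in mammary epithelium, removes the stop. Their tumors were labelled carcinosarcoma (mice 64, 567 and 897, called metaplastic carcinosarcomas below) or carcinoma (mice 89, 273_5 and 3956). Control glands came from 4 mice with MMTV-Cre but no Trim24 transgene (133, 392, 417_3 and 517_3), and 3 tumors that arose spontaneously, labelled non-TRIM24 and of unknown genotype (219, FVB001 and FVB002), formed the fourth group. The labels give no ages. The study's records list the ages of the mice with Trim24COE tumors, which differ within each class, and the study calls its control glands age-matched. Age was not a term in the fits. Each library is whole tissue, so fewer cells of a type and less RNA per cell cannot be told apart. The class of tumors 89, 567 and 3956 differed between the pathologists of the study, and calls based on RNA-seq were part of its records, so class and expression are not fully independent. All non-TRIM24 tumors were sequenced in batch 2, together with repeat libraries of control gland 133 and tumor 3956, whereas all other libraries were in batch 1.

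Values are TPM, which are scaled for gene length and for the library total. They do not keep the read depth, so the part of counting in the errors below is unknown. Trim24 itself ranged from 10.6 to 24.1 TPM over the 6 Trim24COE tumors and from 14.5 to 22.4 TPM over the 4 glands. Its TPM thus did not separate these groups, which are named here as labelled. The study reports higher Trim24 RNA in such tumors than in control glands by qRT-PCR. It also reports overexpressed TRIM24 and FLAG protein there by immunohistochemistry. Fat markers varied most among the tissues. The summed level of 10 adipocyte genes was 25947 and 38723 TPM in control glands 133 and 392, 1774 and 1962 TPM in glands 417_3 and 517_3, and 126 to 1328 TPM in the Trim24COE tumors. Among non-TRIM24 tumors it was 180 TPM in tumor 219, 27860 TPM in FVB002 and 55136 TPM in FVB001. Epcam, which marks epithelium, was present in every group, with its lowest mean, 16.5 TPM, for the metaplastic carcinosarcomas and its highest, 652 TPM, for the Trim24COE carcinomas. For each comparison limma was run on log2(TPM + 1) across every gene that reached 1 TPM in enough libraries, and an adjusted p (Benjamini-Hochberg) under 0.05 was taken as past the threshold.

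Of the 10 genes, 9 lie on chromosome 3 and S100b lies on chromosome 10 (chr10:76253853-76261159, GRCm38, GENCODE M21, as for all genes below). From the start of S100a1 the order along chromosome 3 is S100a1 (chr3:90511034-90514392, minus strand), S100a14 (chr3:90526856-90528837), S100a16 (chr3:90537254-90543151), S100a4 (chr3:90603771-90606045), S100a6 (chr3:90612882-90624181), S100a8 (chr3:90668978-90670035) and S100a9 (chr3:90692632-90695721, minus strand). A further 2824766 bases on lie S100a11 (chr3:93520488-93526287) and S100a10 (chr3:93555080-93564643). S100a8 and S100a9 face each other across 22596 bases, and S100a4 and S100a6 follow each other on the plus strand across 6836 bases. S100a1 lies head to head with S100a13. RefSeq's models of these genes share 98 bases and those of GENCODE M21 stand 42 bases apart, and since the sources name both stranded and other kits, reads of the shared stretch cannot be assigned with certainty.

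The 250 bases before the start of 4 genes are shown because their values carry the results: S100a8 and S100a9 as the pair that rose together, S100a4 as the member with the largest difference between metaplastic carcinosarcomas and glands, and S100a11 as an abundant gene whose ranges overlapped between tumor groups. Sequences are from RefSeq (GRCm38.p6), 5′ to 3′ on the strand of the gene, with motif matches in capitals, and RefSeq's starts can differ from those of GENCODE given above. The windows are chr3:90668821-90669070 (plus strand) for S100a8, chr3:90695722-90695971 (minus) for S100a9, chr3:90603520-90603769 (plus) for S100a4 and chr3:93520246-93520495 (plus) for S100a11.
S100a8: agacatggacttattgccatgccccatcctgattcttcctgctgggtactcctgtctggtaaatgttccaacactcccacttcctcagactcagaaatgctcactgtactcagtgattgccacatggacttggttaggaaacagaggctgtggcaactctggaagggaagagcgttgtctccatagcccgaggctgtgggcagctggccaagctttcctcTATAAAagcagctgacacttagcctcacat
S100a9: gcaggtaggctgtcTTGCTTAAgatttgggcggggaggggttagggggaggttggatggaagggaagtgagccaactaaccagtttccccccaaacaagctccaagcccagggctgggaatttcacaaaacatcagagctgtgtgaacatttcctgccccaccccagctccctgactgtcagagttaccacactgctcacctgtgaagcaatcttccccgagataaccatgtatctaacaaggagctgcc
S100a4: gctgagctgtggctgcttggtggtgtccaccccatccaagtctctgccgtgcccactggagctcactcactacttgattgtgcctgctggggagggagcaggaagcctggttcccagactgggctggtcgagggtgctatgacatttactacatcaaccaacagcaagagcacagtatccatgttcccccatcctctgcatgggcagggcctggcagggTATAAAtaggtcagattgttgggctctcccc
S100a11: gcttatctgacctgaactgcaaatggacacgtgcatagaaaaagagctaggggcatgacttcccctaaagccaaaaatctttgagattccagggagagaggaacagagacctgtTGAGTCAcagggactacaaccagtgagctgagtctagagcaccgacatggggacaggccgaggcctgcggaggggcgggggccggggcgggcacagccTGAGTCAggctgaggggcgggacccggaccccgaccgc
Both strands were searched for a TATA box, a C/EBP core, an AP-1 motif, an NF-kB motif and a STAT motif. The TATA box, TATAAA, starts 30 bases before the start of S100a8 and 31 bases before that of S100a4, and 12.4% of the 32851 windows of this length in the table hold it. For the C/EBP core, TTGCNNAA, S100a9 has a match from 236 bases before its start. This core is in 9.56% of windows, and no TATA box was found in that of S100a9. S100a11 matches the AP-1 motif, TGANTCA, at 136 and at 38 bases before its start, and 6.75% of windows hold it. Of the 8 members with a window in the table, a second window of S100a16 also holds the AP-1 letters. The NF-kB motif (GGGA and TTCC with any 2 bases between) and the STAT motif (TTC and GAA with any 3 between) were in none of the members' windows and in 1.21% and 7.02% of all windows. These matches describe the letters of the windows and were not tested for binding.

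**Figure D1:**
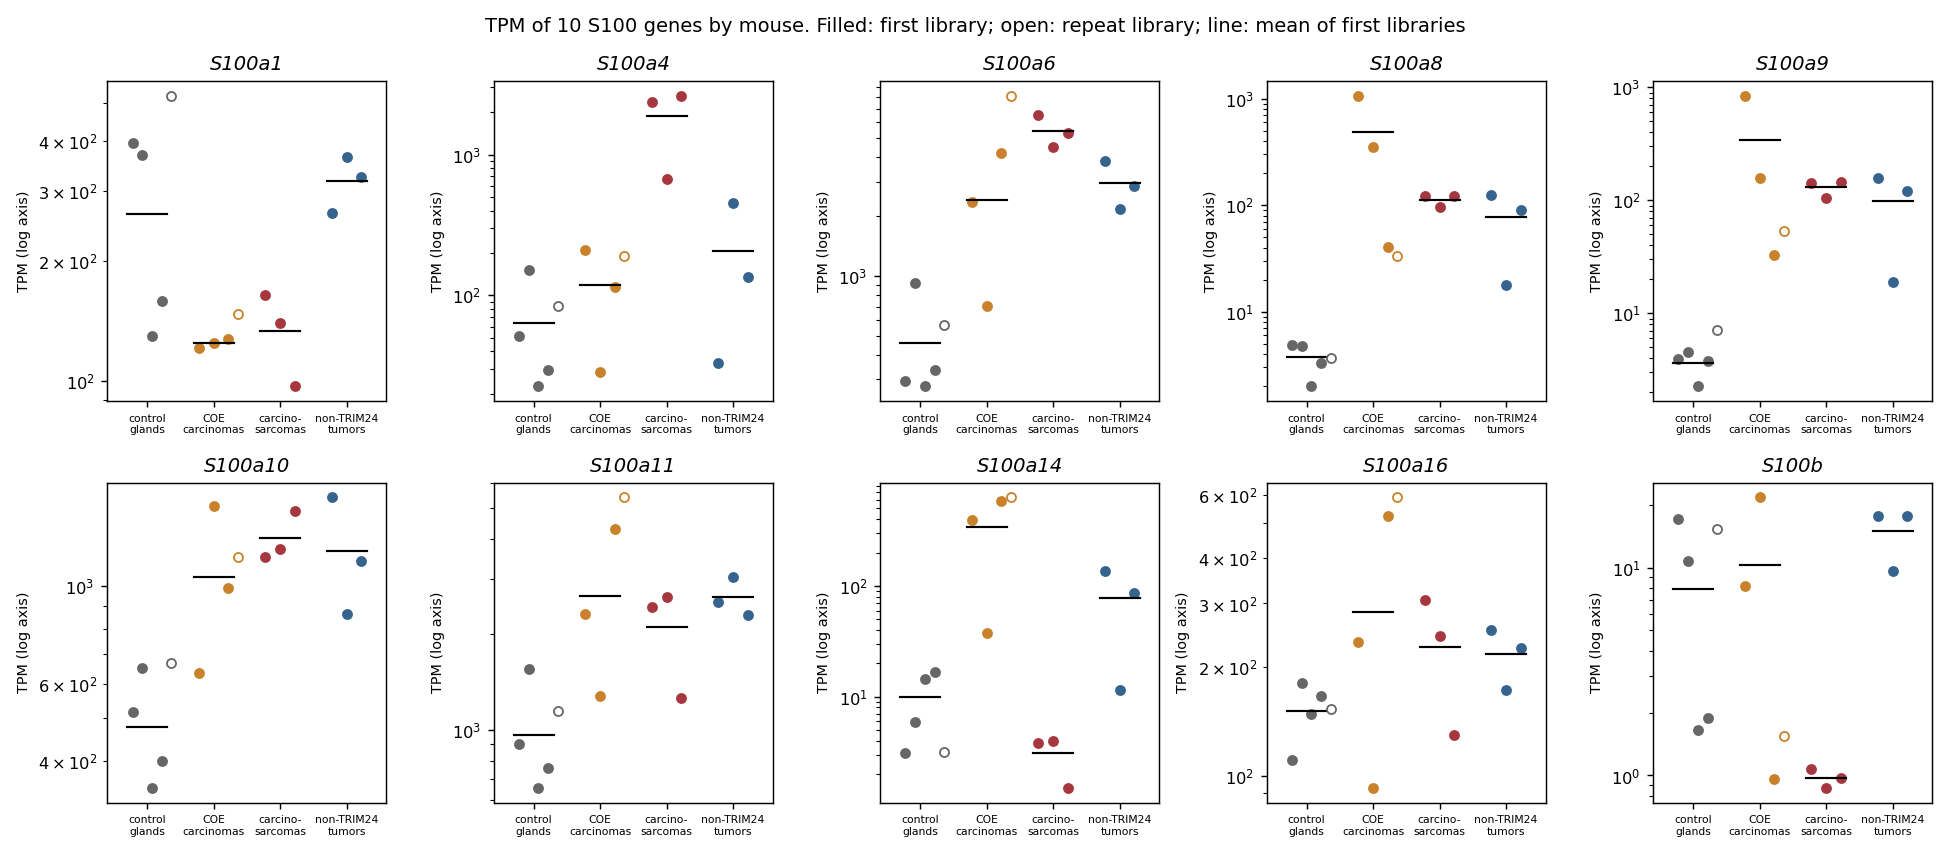
TPM of each S100 gene (log axis, with its own range in each panel) by mouse in control glands, Trim24COE carcinomas, metaplastic carcinosarcomas and non-TRIM24 tumors, with filled points for first libraries, open points for the repeat libraries of mice 133 and 3956 and a line at the mean of the first libraries. By the mean of first libraries, S100a4 and S100a6 are highest and S100a14 is lowest in the metaplastic carcinosarcomas, where S100a14 overlaps the control glands. The highest single value of S100a6 is the repeat library of carcinoma 3956, at 8164 TPM. S100a8 and S100a9 lie below 5 TPM in all first libraries of control glands.

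As a share of all TPM in first libraries, the 10 genes held 0.16% to 0.385% of the control glands, 0.432% to 1.09% of the Trim24COE carcinomas, 0.959% to 1.32% of the metaplastic carcinosarcomas and 0.712% to 0.893% of the non-TRIM24 tumors. The repeat library of carcinoma 3956 held 1.64% (16393 TPM), above every other library, where its first library held 1.09%. In first libraries every tumor stood above every control gland in the summed level, which ran from 1601 to 3848 TPM in the glands and from 4325 to 13208 TPM in the first libraries of the tumors. The genes did not contribute evenly. In the control glands S100a11, a partner of annexin A1, led with a mean of 967 TPM, ahead of S100a10 with 479 TPM and S100a6 with 456 TPM. In the metaplastic carcinosarcomas S100a6 led with 5416 TPM, ahead of S100a11 with 2108 TPM and S100a4 with 1888 TPM. In the Trim24COE carcinomas S100a11 with 2636 TPM and S100a6 with 2413 TPM were highest, and S100a4, at 118 TPM, was next to last. By rank among all genes of its library, S100a6 moved from places 177 to 473 in the control glands to places 3, 16 and 18 in the metaplastic carcinosarcomas.

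**Figure D2:**
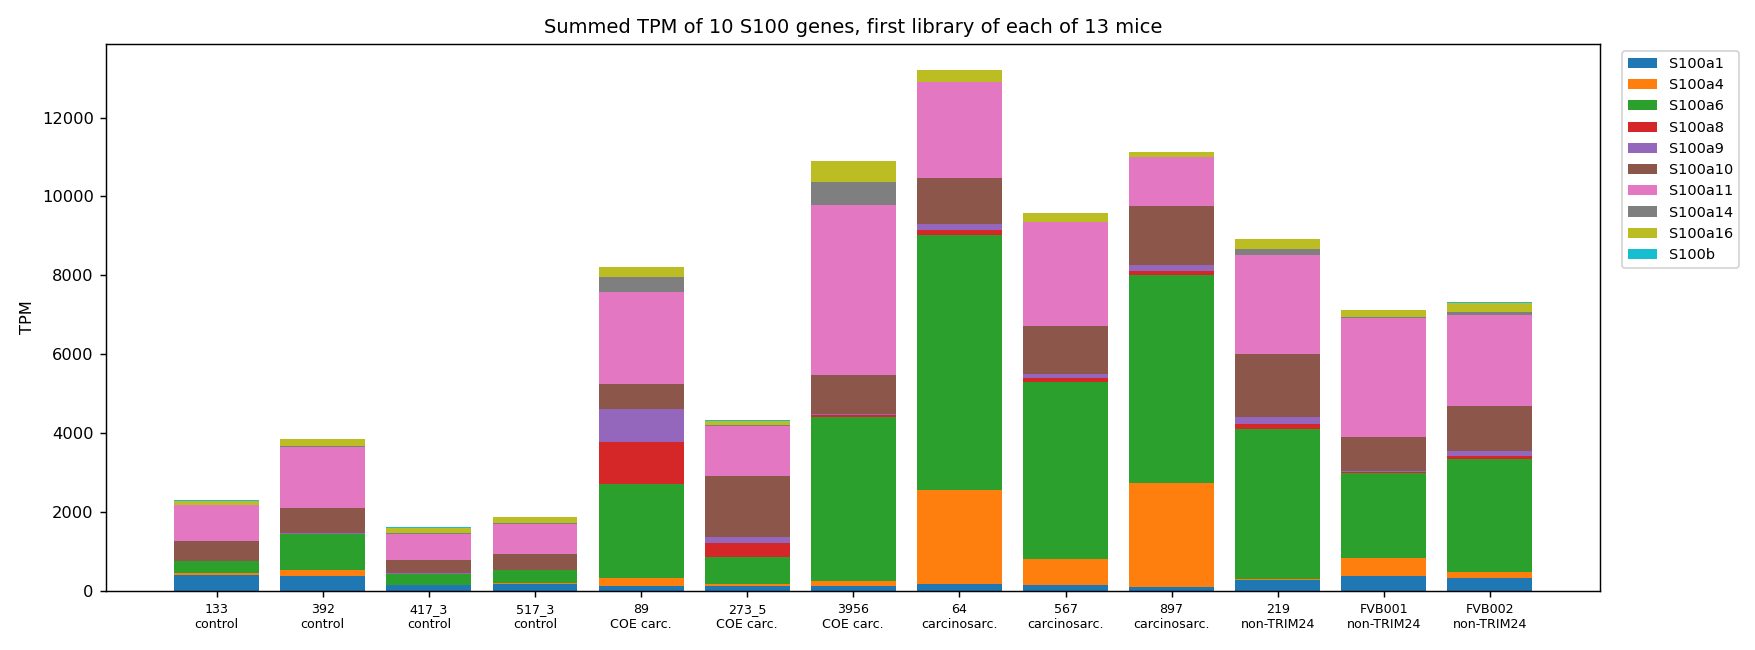
Summed TPM of the 10 S100 genes in the first library of each of the 13 mice, stacked by gene. The control glands reach 1601 to 3848 TPM and the tumors 4325 to 13208 TPM, with S100a6 and S100a11 as the largest blocks in most tumors and S100a4 as a clear block in the metaplastic carcinosarcomas.

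When the 6 Trim24COE tumors were set against the 4 glands, 5 of the 10 genes passed the threshold, all higher in the tumors (S100a6, S100a8, S100a9, S100a10 and S100a11), and none were lower. Over all genes tested in this comparison 17.1% passed, 7.96% higher and 9.13% lower. The median difference of the 10 genes was 1.44 on the log2 scale, against -0.04 for all 15196 genes tested. S100a8 and S100a9 had the largest differences among the 10.

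S100a8 and S100a9 encode the subunits of calprotectin, the heterodimer that neutrophils carry in bulk and release as an antimicrobial and inflammatory signal. In control glands 133, 392, 417_3 and 517_3, S100a8 was at 4.82, 4.81, 1.99 and 3.31 TPM. In the metaplastic carcinosarcomas 64, 567 and 897 it was at 122, 95.9 and 121 TPM, and in the carcinomas 89, 273_5 and 3956 at 1072, 351 and 40.5 TPM. Every Trim24COE tumor therefore lay above every control gland, and the carcinomas spread 26.5-fold while the metaplastic carcinosarcomas spread 1.27-fold. S100a9 also lay higher in every Trim24COE tumor than in every gland, with 3.97, 4.52, 2.26 and 3.81 TPM in the control glands, 142, 105 and 145 TPM in the metaplastic carcinosarcomas and 847, 158 and 32.7 TPM in the carcinomas. The difference between all Trim24COE tumors and the control glands was 5.20 on the log2 scale for S100a8 (standard error 0.74, limma adjusted p = 0.00134) and 5.01 for S100a9 (standard error 0.67, limma adjusted p = 0.00111). An exact two-sided permutation test gave p = 0.00952 for either gene, the smallest that 6 tumors and 4 glands allow. Such a separation, with every tumor above every gland, was seen in 7.39% of the genes tested. Both genes stayed past the threshold in all 10 fits that left out a mouse and in all 5 other alternatives.

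The levels of S100a8 and S100a9 moved almost as one, with Pearson's r of 0.99 over the 10 first libraries of batch 1, as a description of libraries that share groups and batch. The ratio of S100a8 to S100a9 was 0.837 to 0.911 in the metaplastic carcinosarcomas and 1.24, 1.27 and 2.23 in the carcinomas, so these ranges did not overlap in batch 1. In the control glands it was 0.869 to 1.21. In the repeat libraries the ratio fell from 1.24 to 0.619 for tumor 3956 and from 1.21 to 0.514 for gland 133, so a ratio cannot be compared across batches.

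Neutrophil markers were also higher in the Trim24COE tumors. Of 12 such genes 8 could be tested and 5 were higher: Csf3r and Cxcr2, receptors of neutrophils, Mmp8 and Mmp9, granule proteases, and Retnlg. Retnlg had a log2 difference of 3.32 (limma adjusted p = 0.00203). The 12 markers summed to between 92.2 and 206 TPM per gland, 118 and 490 TPM per metaplastic carcinosarcoma and 176 and 561 TPM per carcinoma. In the control glands most of the sum was Ltf, which mammary epithelium also secretes, at 85.6 to 180 TPM. Ltf was lower in metaplastic carcinosarcomas than in glands, by -3.17 (limma adjusted p = 0.00509). Without Ltf the other 11 markers summed to between 4.58 and 25.6 TPM per gland and between 41.9 TPM (carcinoma 273_5) and 481 TPM (metaplastic carcinosarcoma 64) per Trim24COE tumor. These sums did not overlap, but Ltf was left out after the values were seen, so this is a description only. Among single genes 7.39% lay higher in every Trim24COE tumor than in every gland. Mmp9 weighed most among the called markers, with a mean of 143 TPM in Trim24COE tumors and 6.66 TPM in glands, and it alone of them overlapped the glands. Csf3r, Retnlg, Cxcr2 and Mmp8 had means of 19.2, 15.2, 6.58 and 3.5 TPM in these tumors. Carcinoma 89, the tumor highest in S100a8, had the highest sum with Ltf (561 TPM) and the second highest without it (250 TPM). The defining marker Ly6g stayed at or below 0.23 TPM in every gland and lay between 0.24 and 2.97 TPM in Trim24COE tumors, whereas Elane overlapped, at 0.21 to 0.8 TPM against 0 to 1.5 TPM. Carcinoma 89 also had the highest sum of 8 keratinocyte markers, 1316 TPM against 16.3 to 156 TPM in the other Trim24COE tumors. The part of these cells in the S100a8 and S100a9 levels was not tested.

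**Figure D3:**
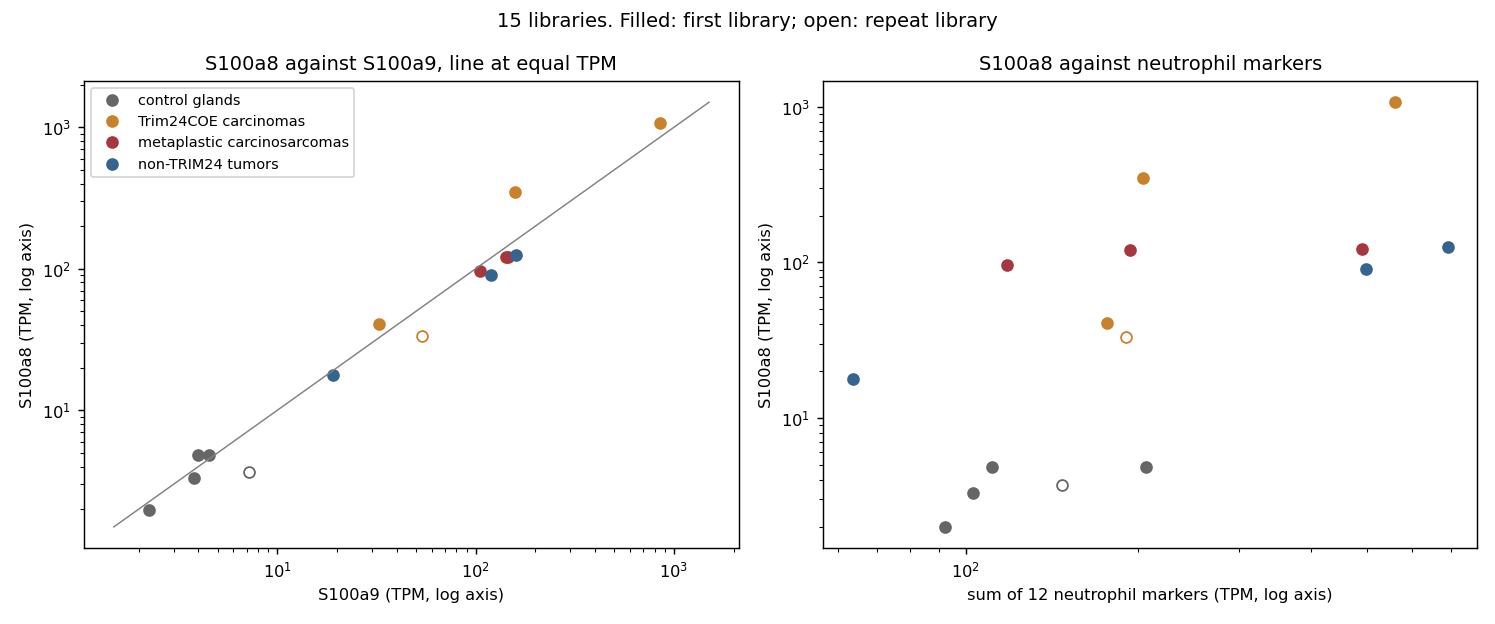
S100a8 (TPM, log axis) against S100a9 (left, with a line at equal TPM) and against the summed TPM of 12 neutrophil markers (right) in 15 libraries, colored by group, with open points for repeat libraries. S100a8 and S100a9 lie along the line from about 2 to 1072 TPM, and on the right the control glands, whose marker sums are mostly Ltf, overlap the tumors in marker sum but not in S100a8. Non-TRIM24 tumor FVB001 has the lowest marker sum (63.5 TPM), but without Ltf its 18.2 TPM lies within the range of the glands.

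S100a6, or calcyclin, is an abundant S100 protein of proliferating and mesenchymal cells. It was at 295, 919, 277 and 334 TPM in control glands 133, 392, 417_3 and 517_3, at 6486, 4484 and 5278 TPM in metaplastic carcinosarcomas 64, 567 and 897, and at 2363, 706 and 4170 TPM in carcinomas 89, 273_5 and 3956. Carcinoma 273_5 lay below control gland 392, and every other Trim24COE tumor lay above every gland. The difference between all Trim24COE tumors and the glands was 3.0 on the log2 scale (standard error 0.60, limma adjusted p = 0.00734, exact permutation p = 0.019). With the adipocyte markers as a covariate it was 2.95 with a limma adjusted p of 0.0528. Over the 10 first libraries of batch 1, S100a6 had r = 0.92 with the summed level of 10 macrophage and monocyte markers, which lay between 642 and 977 TPM per gland and between 1474 and 5506 TPM per Trim24COE tumor. In batch 2, non-TRIM24 tumors 219, FVB001 and FVB002 had 941, 1124 and 920 TPM of these markers. Of the 10 markers 1 was called higher in non-TRIM24 tumors than in glands and 0 lower. This was Cd68, with means of 107 and 22.5 TPM and a log2 difference of 1.81 (limma adjusted p = 0.0407). In the same tumors S100a6 was at 3812, 2176 and 2865 TPM, above every gland. Of those 10 markers 7 were higher in the Trim24COE tumors, among them Fcgr1 with a log2 difference of 3.68 (limma adjusted p = 0.000343), and the part of macrophages in the S100a6 level was not tested.

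S100a10 and S100a11 bind annexins, S100a10 in a tetramer with annexin A2 at the plasma membrane that also captures plasminogen activator. S100a10 was at 516, 652, 347 and 400 TPM in the control glands in the order above, at 1169, 1219 and 1484 TPM in the metaplastic carcinosarcomas and at 635, 1526 and 992 TPM in the carcinomas. Carcinoma 89 alone fell within the range of the control glands. The difference between Trim24COE tumors and glands was 1.27 (standard error 0.29, limma adjusted p = 0.0131), past the threshold in all 10 fits that left out a mouse. S100a11 was at 902, 1551, 656 and 760 TPM in the control glands, at 2438, 2627 and 1259 TPM in the metaplastic carcinosarcomas and at 2326, 1279 and 4305 TPM in the carcinomas. Control gland 392 lay above tumors 897 and 273_5, and the call was a narrow one, with a difference of 1.24 (standard error 0.38, limma adjusted p = 0.0452). It was lost in 4 of the 5 alternatives that kept all mice, with an adjusted p of up to 0.112 (no filter on low values), and 0.1 TPM added before log2 was the exception. It was also lost in 7 of the 10 fits that left out a mouse, those without 64, 89, 133, 417_3, 517_3, 567 or 3956, where the adjusted p rose to at most 0.118.

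**Figure D4:**
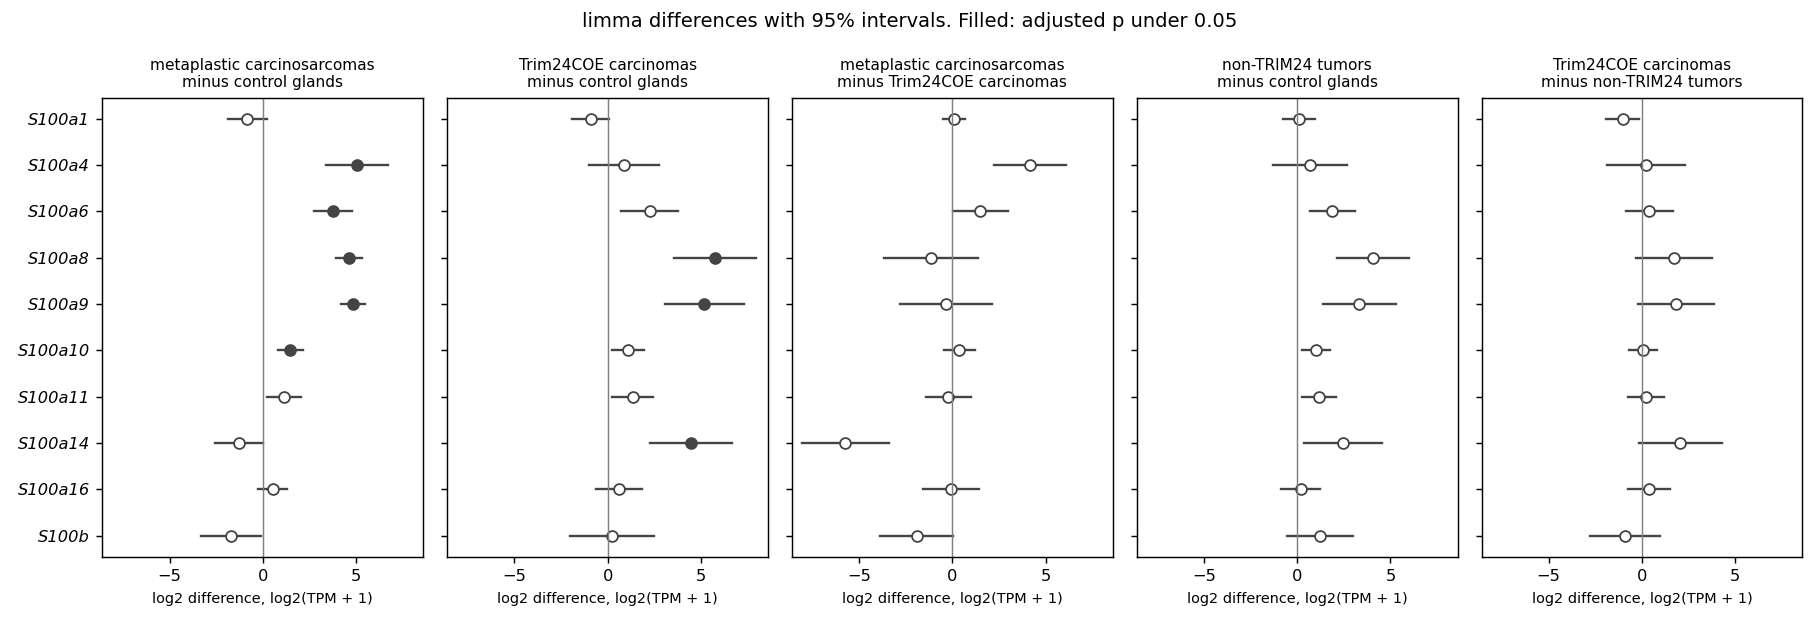
Differences in log2(TPM + 1) from limma with 95% intervals for the 10 S100 genes in 5 comparisons, with filled points where the adjusted p was under 0.05. S100a8 and S100a9 are filled in both comparisons of Trim24COE tumor classes with control glands, S100a4 only for metaplastic carcinosarcomas and S100a14 only for carcinomas, and no point is filled in the other comparisons.

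Metaplastic carcinosarcomas alone were set against the control glands, which all comparisons with glands share. Here 5 of the 10 genes were higher (S100a4, S100a6, S100a8, S100a9 and S100a10) and 0 lower, while 23% of 15287 genes passed, 9.83% higher. S100a4, also called metastasin, binds non-muscle myosin and is linked to motile mesenchymal cells. It was at 2374, 670 and 2621 TPM in metaplastic carcinosarcomas 64, 567 and 897, against 51.5, 151, 22.6 and 29.4 TPM in control glands 133, 392, 417_3 and 517_3. Every tumor lay above every gland, as in 15.4% of all genes tested here. The difference of 5.04 on the log2 scale had a standard error of 0.72 and a limma adjusted p of 0.00325. In the 7 fits that left out a mouse it ranged from 4.69 to 5.67, past the threshold each time. S100a6 differed by 3.75 (standard error 0.45, limma adjusted p = 0.00192), S100a8 by 4.63 (standard error 0.31, limma adjusted p = 0.000404) and S100a9 by 4.84 (standard error 0.28, limma adjusted p = 0.000327). With the adipocyte covariate S100a14 was also past the threshold, lower, with a difference of -2.44 (limma adjusted p = 0.00974), and S100a11 higher, with 1.73 (limma adjusted p = 0.0244). Metaplastic carcinosarcomas and glands did not overlap in S100a4, S100a6, S100a8 or S100a9, and an exact permutation test of 3 tumors and 4 glands cannot go below p = 0.0571, the value all of them gave. Fibroblast markers rose in the same tumors, 4 of 9 with 0 lower, among them Col1a2 by 4.46 (limma adjusted p = 0.0037), and their part in the S100a4 level was not tested.

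The Trim24COE carcinomas differed from the control glands in fewer of the 10 genes. S100a8, S100a9 and S100a14 were higher and 0 were lower, with 3.5% of 15479 genes past the threshold, 1.58% higher. S100a8 differed by 5.78 on the log2 scale (standard error 0.96, limma adjusted p = 0.0239) and S100a9 by 5.18 (standard error 0.93, limma adjusted p = 0.0278). S100a14 marks epithelium, and it was at 392, 37.8 and 589 TPM in carcinomas 89, 273_5 and 3956 against 3.12, 5.86, 14.5 and 16.6 TPM in glands 133, 392, 417_3 and 517_3. The lowest carcinoma lay above the highest gland, as in 10.7% of all genes tested here, and the difference was 4.47 (standard error 0.95, limma adjusted p = 0.0462). These 3 calls depended on single mice: without gland 417_3 or without gland 517_3 none of the 10 genes passed, without gland 392 S100a8 alone did and without carcinoma 273_5 S100a14 alone did. Without a filter on low values none passed either, with adjusted p of 0.0898 for S100a8, 0.103 for S100a9 and 0.154 for S100a14. S100a14 was kept in 1 of the 7 fits without a mouse, and it was also lost with the adipocyte covariate (limma adjusted p = 0.0794). S100a6 differed by 2.26 (95% interval 0.74 to 3.78, limma adjusted p = 0.102, or 0.0484 with all 10 first libraries of batch 1 in the fit) and S100a4 by 0.88 (95% interval -0.98 to 2.73, limma adjusted p = 0.589).

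Between the classes of Trim24COE tumor no S100 gene passed the threshold, in a comparison of 3 mice against 3 in which 0.698% of 14193 genes passed. At an unadjusted p under 0.05 there were 3 of the 10, S100a4, S100a6 and S100a14, against 15% of all genes tested. In first libraries the classes did not overlap in these 3 genes. Of all genes, 7.33% lay wholly higher and 14.4% wholly lower in the metaplastic carcinosarcomas. S100a4 spanned 670 to 2621 TPM over the metaplastic carcinosarcomas and 28.8 to 209 TPM over the carcinomas, a difference of 4.16 (95% interval 2.24 to 6.09, limma adjusted p = 0.107). S100a14 went the other way, with at most 3.97 TPM in any metaplastic carcinosarcoma and at least 37.8 TPM in every carcinoma, a difference of -5.73 (95% interval -8.04 to -3.42, limma adjusted p = 0.067). Fitted with all 10 first libraries of batch 1 in place of the 6 tumors, S100a14 passed, with a limma adjusted p of 0.0244, and it also passed without carcinoma 273_5, with 0.0192. S100a6 differed by 1.49 (95% interval 0.01 to 2.97, limma adjusted p = 0.33), with 4484 to 6486 TPM in metaplastic carcinosarcomas and 706 to 4170 TPM in carcinomas. The repeat library of carcinoma 3956, in batch 2, had 8164 TPM of S100a6. The exact permutation p was 0.1 for all 3, the smallest possible. Luminal epithelial markers differed in the direction of S100a14: they summed to between 307 and 1414 TPM per metaplastic carcinosarcoma and between 2831 and 6593 TPM per carcinoma, with Cldn3 and Cldn7 lower in the metaplastic carcinosarcomas among 10 markers. Glands 133, 392, 417_3 and 517_3 had sums of 959, 1582, 4970 and 5231 TPM, with S100a14 at 3.12, 5.86, 14.5 and 16.6 TPM. Over the 10 first libraries of batch 1, S100a14 had r = 0.67 with the luminal sum and 0.86 with the keratinocyte sum. The part of these cells in the S100a14 level was not tested. S100a8 differed by -1.14 (95% interval -3.65 to 1.36).

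S100a1, S100a16 and S100b did not pass the threshold in any of the 6 comparisons. The study's own list from read counts has S100b higher in the carcinomas than in the carcinosarcomas. Here metaplastic carcinosarcomas minus carcinomas gave -1.92 for S100b (95% interval -3.86 to 0.02, limma adjusted p = 0.335). S100a1, a regulator of calcium release in muscle, was at 396, 369, 130 and 159 TPM in control glands 133, 392, 417_3 and 517_3, at 165, 140 and 97.2 TPM in metaplastic carcinosarcomas 64, 567 and 897 and at 121, 125 and 128 TPM in carcinomas 89, 273_5 and 3956. The high pair of glands is the pair rich in adipocyte markers, and S100a1 had r = 0.85 with the summed adipocyte markers over these 10 libraries. In S100a1 every carcinoma lay below every gland, as in 10.7% of all genes. Its difference between Trim24COE tumors and glands was -0.87 (95% interval -1.59 to -0.16, limma adjusted p = 0.0877), and without gland 417_3 it was -1.15 with a limma adjusted p of 0.0376. Non-TRIM24 tumor 219 had 265 TPM of S100a1 with 180 TPM of adipocyte markers. S100b, the glial S100 protein that fat cells also make, was at 17.3, 10.8, 1.65 and 1.9 TPM in the same glands, at 1.08, 0.87 and 0.97 TPM in the metaplastic carcinosarcomas and at 8.21, 21.9 and 0.96 TPM in the carcinomas. The metaplastic carcinosarcomas lay below every gland, as in 21.6% of all genes in that comparison, with a difference of -1.69 (95% interval -3.29 to -0.10, limma adjusted p = 0.114), and with the adipocyte covariate the difference was 0.07. Of 8 Schwann cell markers 7 were tested and 5 were lower in the metaplastic carcinosarcomas than in the glands. Among the glands their sum ran against S100b, at 63.6, 138, 281 and 246 TPM in 133, 392, 417_3 and 517_3. Over the 10 first libraries of batch 1, S100b had r = 0.46 with the Schwann cell sum and 0.68 with the adipocyte sum. The part of either cell type in the S100b level was not tested. S100a16, a widely expressed member, spanned 111 to 181 TPM over the glands, 130 to 307 TPM over the metaplastic carcinosarcomas and 92.6 to 525 TPM over the carcinomas, and all these ranges overlapped.

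In non-TRIM24 tumors 219, FVB001 and FVB002, S100a8 was at 126, 17.7 and 90.3 TPM and S100a9 at 159, 19 and 120 TPM, all above every control gland. S100a6 was at 3812, 2176 and 2865 TPM, S100a10 at 1596, 865 and 1145 TPM and S100a11 at 2533, 3032 and 2304 TPM, also above the first libraries of all 4 glands. Over all genes tested in this comparison, 7.62% lay higher in every non-TRIM24 tumor than in every gland in this way. Batch 2 held only 1 control library, the repeat of gland 133, with 3.69 TPM of S100a8, 7.18 TPM of S100a9, 563 TPM of S100a6, 669 TPM of S100a10 and 1145 TPM of S100a11, and within that batch the 3 tumors lay above it in each of these genes. In a limma fit of all 15 libraries with the batch as a term and the mouse as a block, 0 of the 10 genes passed and 6 had an unadjusted p under 0.05, where 0.709% of 16775 genes passed and 19.3% had such a p. S100a8 differed by 4.06 (95% interval 2.14 to 5.98, limma adjusted p = 0.0619) and S100a9 by 3.33 (95% interval 1.40 to 5.27, limma adjusted p = 0.103). S100a6 differed by 1.89 (95% interval 0.69 to 3.09, limma adjusted p = 0.12). The median of all genes in this fit was -0.27, and -0.03 once libraries were rescaled by their median ratio, which also moved the whole-table calls from 34 higher and 85 lower to 87 higher and 98 lower and S100a8 to 4.32 with a limma adjusted p of 0.043. Tumor FVB001, the lowest in S100a8 and S100a9, was the richest in fat markers, and without it S100a8 had a limma adjusted p of 0.0299 and S100a9 of 0.0442. S100a4 was at 32.9, 451 and 136 TPM in these tumors, with FVB001 the highest, and the metaplastic carcinosarcomas at 670 TPM or more stood above all of them.

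Trim24COE carcinomas and non-TRIM24 tumors, both labelled carcinoma, differed in 0 of the 10 genes by adjusted p and in 1, S100a1, by unadjusted p, while 0.0298% of 16775 genes passed and 17.6% had an unadjusted p under 0.05. S100a1 was at 121 to 128 TPM in the first libraries of the Trim24COE carcinomas and at 265, 365 and 326 TPM in the non-TRIM24 tumors, and the repeat library of tumor 3956, in the same batch as the latter, had 148 TPM. The difference was -1.04 (95% interval -1.93 to -0.15, limma adjusted p = 0.234). S100a14 differed by 2.06 (95% interval -0.16 to 4.27) and S100a8 by 1.70 (95% interval -0.34 to 3.74). For S100a4, S100a6, S100a10, S100a11 and S100a16 the fitted difference was positive and turned negative when libraries were rescaled, so no direction is given for them. The median of all genes in this comparison was 0.27, and -0.04 after rescaling.

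The repeat libraries showed how far the S100 genes shift between batches within 1 mouse. S100a6 was 1.91 times as high in the repeat library of control gland 133 (563 against 295 TPM) and 1.96 times as high in that of tumor 3956 (8164 against 4170 TPM), which are shifts of 0.93 and 0.97 on the log2 scale. S100a4 shifted by 0.71 in both mice, S100a9 by 0.72 and 0.70, and S100a8 fell in both by 0.31 and 0.28 on that scale. Over all genes at 1 TPM or more in both libraries the median absolute shift was 0.22 for mouse 133 and 0.23 for mouse 3956, with a median of 0.06 and -0.07. The shifts of S100a6, S100a4 and S100a9 were thus above the typical gene and nearly equal in a gland and a tumor. S100a14 shifted by 0.02 and 0.10.

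**Figure D5:**
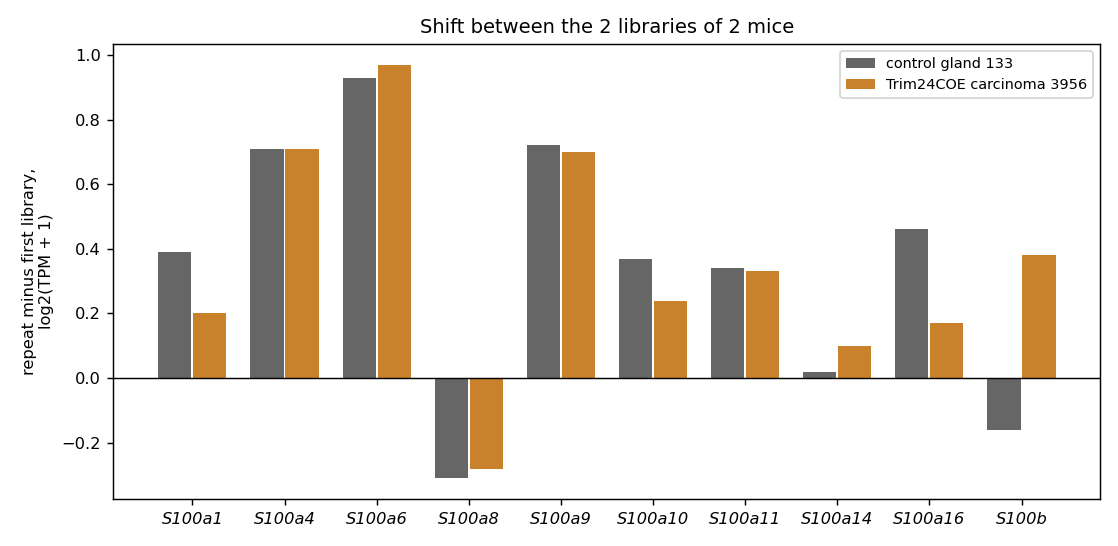
Shift of log2(TPM + 1) from the first library (batch 1) to the repeat library (batch 2) for the 10 S100 genes in control gland 133 and Trim24COE carcinoma 3956. Bars of the 2 mice stand at nearly the same height for S100a4, S100a6, S100a8 and S100a9, and S100b is the only gene whose bars point in opposite directions.

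Ordered by group mean of first libraries, S100a4 and S100a6 were highest in metaplastic carcinosarcomas, without overlap with the next group, the non-TRIM24 tumors, which had been sequenced in the other batch. S100a8, S100a9, S100a11, S100a14 and S100a16 had their highest mean in the Trim24COE carcinomas, and in all 5 the next group overlapped. S100a10 was highest in metaplastic carcinosarcomas with overlap, and S100a1 and S100b were highest in the non-TRIM24 tumors, also with overlap. S100b separated its lowest group, the metaplastic carcinosarcomas, from the control glands above it, and S100a8 and S100a9 separated the control glands from all tumors.

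Of 8 other S100 genes 3 were tested in the comparison of Trim24COE tumors with glands, S100a3, S100a7a and S100a13, and 0 passed the threshold, where 17.1% of all genes did. S100g, a calcium buffer of transporting epithelia also called calbindin-D9k, had 109 TPM in metaplastic carcinosarcoma 64 and at most 7.21 TPM in any other library. S100a7a, the mouse relative of psoriasin, had 14.1 TPM in carcinoma 89, the tumor with the most S100a8 and keratinocyte markers, and 7.69 TPM in carcinoma 3956. S100a13 had a mean of 165 TPM in metaplastic carcinosarcomas and 68.5 TPM in carcinomas, a difference of 1.16 with a limma adjusted p of 0.266.

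Among 16 receptors and partners of S100 proteins 15 were tested, and in the Trim24COE tumors 4 were higher and 1 lower than in the glands. Of all genes tested in this comparison 7.96% were higher and 9.13% lower. Anxa2, the partner of S100a10, rose by 1.34 on the log2 scale (standard error 0.33, limma adjusted p = 0.0186), from a mean of 450 to 1213 TPM, and no tumor overlapped the glands. Anxa1, the partner of S100a11, rose by 1.63 (standard error 0.40, limma adjusted p = 0.0193), and Plat, the tissue plasminogen activator, by 2.13 (standard error 0.54, limma adjusted p = 0.022). Bsg, a reported receptor of S100a9, rose by 0.64 (limma adjusted p = 0.041). Cd36, a fatty acid transporter of fat and endothelial cells that also binds S100a8 and S100a9, fell by 5.23 on that scale (limma adjusted p = 0.00041). The classical receptors did not pass: Ager had a mean of 1.99 TPM in tumors and 2.96 TPM in glands (difference -0.47, limma adjusted p = 0.301), and Tlr4 8.34 and 7.31 TPM (difference 0.18, limma adjusted p = 0.756). In the metaplastic carcinosarcomas Anxa1, Anxa2, Plat, Nptn and Cacybp, a ligand of S100a6, were higher and Cd36 lower, and in the carcinomas Anxa1 was higher and Cd36 lower. Of these 15 genes 0 passed between the tumor classes or in the comparisons with non-TRIM24 tumors. Few of all genes did: 0.698% between classes, 0.709% for non-TRIM24 tumors against glands and 0.0298% for carcinomas against non-TRIM24 tumors.

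The stretch of chromosome 3 from S100a1 to S100a10 also holds genes of the cornified envelope. RefSeq lists 101 genes there, of which 68 were matched to the tables, 59 of them outside the 10 members. Few were expressed: 7 could be tested between Trim24COE tumors and glands, and 0 passed, with a median difference of 0.76. Of all genes 17.1% passed in this comparison, so 7 genes are too few to tell the stretch from other genes. In the comparison of non-TRIM24 tumors with glands 14 were tested and 1, Sprr2a2, was higher, where 0.709% of all genes passed.

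By the likeness of log2(TPM + 1) over the 10 first libraries of batch 1, among 13790 genes with regular names, the gene most like S100a8 was S100a9 and the reverse (r = 0.99), followed by Apol9a for S100a8 (r = 0.96) and Ankrd37 for S100a9 (r = 0.97). S100a4 was most like Csrp2, Pcolce and Serp2 (r = 0.97 each), of which Pcolce encodes an enhancer of procollagen processing. S100a6 was most like Mrc2 (r = 0.98), a collagen receptor, Sft2d1 (r = 0.98) and Oaf (r = 0.97). S100a14 was most like Tns4 (r = 0.98), Tgfa and Sp6 (r = 0.95 each), and S100a1 most like Mlycd (r = 0.98), the malonyl-CoA decarboxylase, Pcca and Uqcc3 (r = 0.95 each). S100a10 was most like Rcor2 (r = 0.98), S100a11 like Rgs14 and Siglece (r = 0.98 each), S100a16 like Plekha2 (r = 0.97) and S100b like Timm21 (r = 0.95). Among the members themselves S100a4 and S100a6 had r = 0.88, S100a6 and S100a11 r = 0.82 and S100a11 and S100a16 r = 0.81. These are descriptions over 10 libraries that share batch and groups.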

How the data were processed

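Total RNA of whole mammary glands and tumors was sequenced. The deposited values are TPM per gene, which the authors made from reads trimmed with Trimmomatic and aligned by STAR to GRCm38, with RSEM estimating abundance, 1 column per library. The labels also name mm10, TopHat and Cufflinks, with no role. Groups came from the sample labels, and each mouse entered with its first library. TPM keep no depth, and the read counts behind the study's DESeq2 analysis were not used here.

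Two-sided tests came from limma 3.58.1 (R 4.3.3, variance trend, Benjamini-Hochberg) on log2(TPM + 1), which understates changes of low genes, over genes that reached 1 TPM in at least the number of libraries given by the smaller group's mice. Comparisons within batch 1 used the groups compared. For non-TRIM24 tumors the 15 libraries entered together, with batch as a term and a correlation of 0.951 between libraries of a mouse. Permutation tests used scipy 1.17.1. Fits were tested on simulated data.

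All 10 members, Trim24, called genes of the lists and the 3 genes most like each member, without clone names, were to be named. S100g, S100a7a, S100a13, Epcam, Ly6g, Elane, Ltf, Ager and Tlr4 are further members of the lists, named after their values were seen. The members and lists were chosen with earlier results of these data known. The marker lists of T cells, endothelium, skeletal muscle and basal epithelium gave 0 of 7, 0 of 6, 0 of 8 and 0 of 8 genes higher in the Trim24COE tumors than in the glands, and 1, 4, 0 and 3 lower. Alternatives changed the pseudocount, filter, scaling, libraries, batch term, a covariate and single mice. The mice share no replicate numbers across groups.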

Additional observations from a re-analysis of the deposited data

Results flagged for a closer look

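One value stood apart from its group. S100a6 in control gland 392, at 919 TPM, lay above the other 3 control glands (277 to 334 TPM) by a gap of 0.85 of the whole range on the log2(TPM + 1) scale, above Dixon's 95% critical value for 4 samples. Chance flags about 1 in 20 such groups, and 20 were examined (10 genes, each in the control glands and in the Trim24COE tumors). Gland 392 was also the highest of the control glands in S100a4 (151 TPM), S100a10 (652 TPM) and S100a11 (1551 TPM), and it had the highest summed level of macrophage and monocyte markers among them (977 TPM against 642 to 762 TPM). Without it the difference in S100a6 between Trim24COE tumors and control glands remained past the threshold, as it did in all 10 fits that left out a mouse.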

How the results depend on the processing

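No paired analysis was possible because the labels give each mouse its own number and the groups share none. Against the glands, all Trim24COE tumors had 5 S100 genes past the threshold, 3 with adipocyte markers as a covariate, 4 (S100a11 lost) without a filter, with rescaled libraries or with means of repeated libraries, and 4 to 6 without single mice. Without carcinoma 273_5 S100a4 also passed (3.70, limma adjusted p = 0.0257). The 5 genes called in metaplastic carcinosarcomas passed in all 6 alternatives with every mouse and all 7 without one, and S100a11 was added without gland 392 (limma adjusted p = 0.0404). For carcinomas the count of 3 fell to 0 without a filter on low values and to 2 with the covariate (S100a14 lost), rose to 4 with all 10 first libraries (S100a6 added) and was 0 to 2 without single mice. Between tumor classes it was 1 with all 10 first libraries of batch 1, and 0 to 1 without single mice (S100a14 without 273_5, S100b without 3956). For non-TRIM24 tumors against glands it was 1 with rescaled libraries, 4 with no batch term and first libraries only, and 0 to 2 without single mice (2 without FVB001). For carcinomas against non-TRIM24 tumors it was 1 with no batch term and first libraries only (S100a1, -1.34, limma adjusted p = 0.0443). The causes were not tested.

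Directions of uncalled differences turned in places. With the adipocyte covariate S100b was 1.11 for all Trim24COE tumors, and for metaplastic carcinosarcomas S100b was 0.07 and S100a1 0.20. Rescaling gave 0.03 for S100a16 between classes. For carcinomas against non-TRIM24 tumors it gave -0.18 for S100a4, -0.01 for S100a6 and S100a16, -0.33 for S100a10 and -0.19 for S100a11, and with no batch term and first libraries only S100a4 was -0.51, S100a6 -0.59, S100a10 -0.24 and S100a11 -0.16. With libraries of a mouse taken as separate, S100a1 was -0.37 and S100a16 -0.03 for non-TRIM24 tumors against glands. Without single mice, ranges crossed 0 for carcinomas against glands in S100a16 (-0.02 to 1.23) and S100b (-0.59 to 1.19). Between classes they did so in S100a1 (-0.09 to 0.29), S100a9 (-1.49 to 0.83), S100a11 (-0.66 to 0.22) and S100a16 (-0.71 to 0.54), and for non-TRIM24 tumors against glands in S100a1 (-0.18 to 0.48) and S100a4 (-0.24 to 1.63). For carcinomas against non-TRIM24 tumors they did so in S100a4 (-0.75 to 1.12), S100a6 (-0.24 to 1.09), S100a10 (-0.25 to 0.36), S100a11 (-0.25 to 0.63) and S100a16 (-0.10 to 0.99).

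Whole-table counts moved from 542 to 1170 with all 10 first libraries and to 46 without a filter for carcinomas, and without a filter from 3511 to 1623 for metaplastic carcinosarcomas, from 99 to 0 between classes, from 119 to 50 for non-TRIM24 tumors against glands and from 5 to 8 for carcinomas against non-TRIM24 tumors. With no batch term and first libraries only, changed together, they were 907 for non-TRIM24 tumors against glands and 985 for carcinomas against non-TRIM24 tumors. With the adipocyte covariate the count was 1230 in place of 2597 for all Trim24COE tumors and 829 for carcinomas. With libraries taken as separate it was 18 for non-TRIM24 tumors against glands and 3 for carcinomas against non-TRIM24 tumors, where 0.1 TPM added before log2 gave 2 and rescaling gave 8.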
